A study of Mus musculus with 4 samples.

Results

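The collagen genes of the mouse were described in 4 subcutaneous tumours of the neuroblastoma line 9464D-GD2. The members were all protein-coding genes whose GENCODE M21 symbol is Col, a type number, the letter a and a chain number, which gave 44 of the 43432 genes in the deposited count table. They fall into 11 fibrillar genes, 6 basement membrane genes of type IV, 9 FACIT genes (collagens that sit on the surface of fibrils and have interrupted helices) and 18 others. The study grew the line in female C57BL/6 mice and sequenced messenger RNA from flash-frozen whole tumours. In the first group, 2 mice received 25 µg dinutuximab, an antibody against the ganglioside GD2, together with 20 µg of small extracellular vesicles (sEVs) that came from 9464D-GD2 cells. In the other group, 2 mice received 25 µg dinutuximab alone. Both groups were dosed 2 times a week for 5 treatments, so the antibody and the GD2-bearing line are common to all 4 tumours. Tumours are numbered 3 and 4 in both groups, and the series design calls them biological replicates. Each value belongs to a whole tumour, in which tumour cells and the host's stroma, vessels and leukocytes are mixed.

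Collagens are secreted or membrane proteins whose chains wind into helical trimers. Fibrillar types I, III and V form the tensile fibres of connective tissue, type IV forms the sheet under endothelium and around pericytes, and type VI forms beaded filaments that tie cells to the surrounding matrix. Chains of the same trimer are encoded by different genes, and several such genes lie side by side. In solid tumours collagens are usually made by fibroblasts and pericytes, while vessels and tumour cells contribute type IV and other types.

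Several members are neighbours in the genome (GRCm38, the assembly that mm10 denotes). Col4a1 (ENSMUSG00000031502, chr8:11198423-11312826, minus strand) and Col4a2 (ENSMUSG00000031503, chr8:11312805-11449287, plus strand) run head to head with starts 21 bases apart. Col4a5 (chrX:141475385-141689234) and Col4a6 (chrX:141165403-141474076) are also head to head, with starts 1309 bases apart. Col6a1 (ENSMUSG00000001119, chr10:76708792-76726168) and Col6a2 (ENSMUSG00000020241, chr10:76595762-76623630) share the minus strand with a gap of 85161 bases. Col3a1 (ENSMUSG00000026043, chr1:45311538-45349706, plus strand) and Col5a2 (chr1:45374321-45503282, minus strand) end 24614 bases apart. Col1a1 (ENSMUSG00000001506, chr11:94936224-94953042) and Col1a2 (ENSMUSG00000029661, chr6:4504814-4541544) lie on different chromosomes.

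Upstream sequence is shown for Col6a2 and Col6a3, partner chains of the collagen type with the most counts, and for Col3a1 and Col1a2, fibrillar genes whose values lay on opposite sides between the groups. Sequences are from RefSeq on GRCm38.p6, written 5′ to 3′ on the gene's strand. Each ends at the base before the RefSeq start, except that of Col1a2, which was shortened to 123 bases because annotated exons of the gene cover the rest. The outermost Col1a2 start in GENCODE is 804 bases upstream of that in RefSeq. Capitals mark GGGCGG (a GC box) or TATAAA on either strand.
Col6a2, GRCm38.p6, chr10:76623631-76623880, minus strand: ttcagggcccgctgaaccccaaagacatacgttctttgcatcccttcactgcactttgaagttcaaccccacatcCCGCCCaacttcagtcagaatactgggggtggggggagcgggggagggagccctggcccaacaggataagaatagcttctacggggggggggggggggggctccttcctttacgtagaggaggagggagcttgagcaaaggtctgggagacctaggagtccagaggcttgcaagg
Col6a3, GRCm38.p6, chr1:90843972-90844221, minus strand: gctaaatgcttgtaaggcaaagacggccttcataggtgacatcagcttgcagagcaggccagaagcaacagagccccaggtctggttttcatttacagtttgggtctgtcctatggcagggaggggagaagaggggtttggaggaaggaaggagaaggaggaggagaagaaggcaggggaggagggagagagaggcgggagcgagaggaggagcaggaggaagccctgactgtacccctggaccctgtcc
Col3a1, GRCm38.p6, chr1:45311288-45311537, plus strand: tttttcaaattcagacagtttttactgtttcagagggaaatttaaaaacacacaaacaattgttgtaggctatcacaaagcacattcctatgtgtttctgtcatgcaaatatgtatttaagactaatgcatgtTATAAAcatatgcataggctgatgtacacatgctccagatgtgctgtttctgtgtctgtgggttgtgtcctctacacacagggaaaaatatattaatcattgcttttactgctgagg
Col1a2, GRCm38.p6, chr6:4505370-4505492, plus strand: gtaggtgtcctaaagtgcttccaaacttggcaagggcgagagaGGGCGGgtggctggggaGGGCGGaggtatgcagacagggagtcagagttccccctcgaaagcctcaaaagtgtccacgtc
The Col3a1 stretch held 1 TATAAA and had a GC content of 35.2%. The Col1a2 stretch held 2 GGGCGG and had a GC content of 59.3%, the Col6a2 stretch held 1 GGGCGG at 59.2%, and the Col6a3 stretch held none of these motifs at 57.2%. Over the full 250 bases upstream, the table had 38 windows for 35 of the 44 collagen genes. GGGCGG on either strand was in 22 of these 38 windows, against 32.7% of all 32851 RefSeq windows. CCAAT was in 13 of the 38, against 33.8% of all windows, and TATAAA was in 5 of the 38, against 12.4%. A match to these letters is a description of the sequence and not a binding site.

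The sEV libraries held 26164711 and 28187573 counts and the dinutuximab libraries 26312447 and 24452699. In a principal component analysis, sEV tumour 3 stood apart along component 1 (42.4% of the variance), with a score of 35.2 where the scores of the remaining libraries ran from -16.3 to -5.96, so results are given with and without it where it matters. Among tumour line markers Hand2, Isl1 and B4galnt1, an enzyme of GD2 synthesis, were measured in all 4 libraries, while Dbh, an enzyme of noradrenaline synthesis, had 0 counts in each. Collagen counts made up 0.330% (95% exact binomial interval 0.328 to 0.332) and 0.351% (0.349 to 0.353) of the sEV libraries, against 0.274% (0.272 to 0.276) and 0.354% (0.352 to 0.357) of the dinutuximab libraries. Intervals cover counting error only. The groups overlapped in this share, and the highest and the lowest value were both from dinutuximab tumours.

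Of the 44 collagen genes, 28 had enough counts to be tested and 16 did not. Levels are given as CPM, counts per 1000000 of the scaled library size, and between genes as CPM per kilobase of annotated exon. In edgeR (quasi-likelihood F test, Benjamini-Hochberg adjustment over all 13823 genes tested), 0 collagen genes were higher and 0 lower with sEVs, where 0% of all genes were called in either direction. At an unadjusted p under 0.05, 1 of the 28 was higher and 5 were lower, where 2.47% of all genes tested were higher and 3.1% lower. DESeq2 called 0 of the 24 collagen genes with an adjusted p higher and 2 lower. Of all 12191 genes with an adjusted p, it called 0.115% higher and 0.254% lower. limma-voom called 0 and 0, where 0% of all genes were called. At an unadjusted p under 0.05, DESeq2 had 1 of the 41 collagen genes with any count higher and 6 lower, where 1.24% and 1.84% of 22003 genes were. DESeq2 was run without the filter on low counts, so its shares are over other genes than those of edgeR and limma-voom. At the same threshold limma-voom had 1 of the 28 tested collagen genes higher and 6 lower, where 2.29% and 3.09% of all genes were. Without sEV tumour 3, edgeR called 0 collagen genes higher and 4 lower after adjustment, where 0.338% and 0.592% of all genes were. Without sEV tumour 4 it called 1 higher and 2 lower, where 1.13% and 1.1% of all genes were, and without either dinutuximab tumour it called 0 in each direction, where 0% of all genes were. The median log2 fold change of the 28 was -0.10, and that of all genes tested was 0.00. The collagen median was -0.23 without sEV tumour 3, -0.37 without sEV tumour 4, -0.03 without dinutuximab tumour 3 and -0.01 without dinutuximab tumour 4. Both tumours of the sEV group lay above both of the dinutuximab group for 2 of the 28 genes, against 18.1% of all genes, and below them for 8, against 16.5%.

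**Figure D1:**
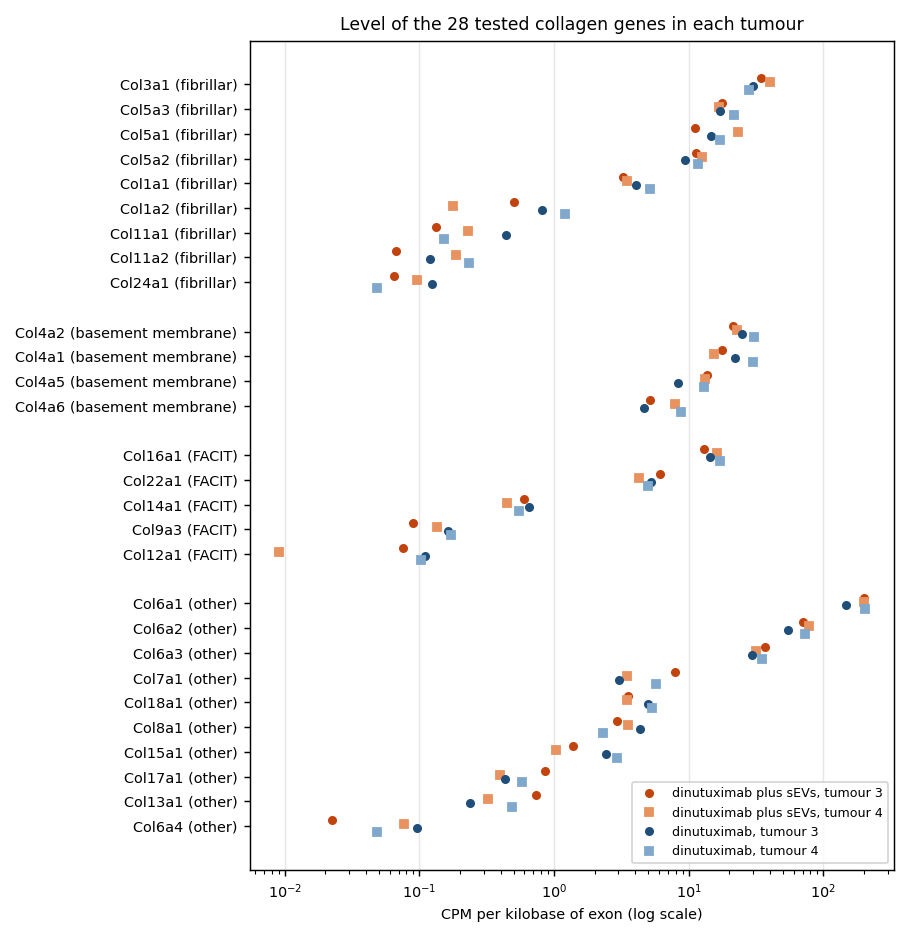
Level of each of the 28 tested collagen genes in CPM per kilobase of exon (log axis), with a point for each tumour and the genes grouped by class. Col6a1 has the highest mean, 188, and Col1a2 lies well under Col1a1 and Col3a1 in every tumour.

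Type VI, a filament collagen of the pericellular matrix, provided most collagen counts in every tumour. Its chains Col6a1, Col6a2 and Col6a3 took 57.8% (95% exact binomial interval 57.4 to 58.1) and 55.5% (55.1 to 55.8) of collagen counts in the sEV tumours, against 51.6% (51.2 to 51.9) and 54.3% (53.9 to 54.6) in the dinutuximab tumours. The share was higher in both sEV tumours, while the summed level was not: it was 1900 and 1900 CPM with sEVs, against 1450 and 1930 CPM with dinutuximab. Per kilobase, Col6a1 averaged 188, Col6a2 69.0 and Col6a3 33.2 CPM over the 4 tumours. Col6a1 stood at 872 and 880 CPM in the sEV tumours and at 650 and 895 CPM in the dinutuximab tumours. Col6a2 stood at 589 and 647 CPM, against 451 and 612 CPM with dinutuximab. Col6a3 stood at 443 and 376 CPM, against 350 and 418 CPM with dinutuximab. For all 3 chains the groups overlapped and dinutuximab tumour 3 was lowest. Their log2 fold changes were 0.18 ± 0.16, 0.22 ± 0.16 and 0.09 ± 0.15 (SE, n = 2 per group), with edgeR adjusted p between 0.909 and 0.959. Without dinutuximab tumour 3 they were -0.03, 0.01 and -0.03.

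Col6a1 and Col6a2 kept a similar proportion in the 4 tumours. The ratio of Col6a1 to Col6a2, per kilobase, was 2.81 and 2.59 in the sEV tumours, against 2.74 and 2.78 in the dinutuximab tumours. The other 3 type VI genes were nearly silent: Col6a4 had at most 21 counts in a tumour, Col6a6 at most 1, and Col6a5 had 0 in all 4.

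**Figure D2:**
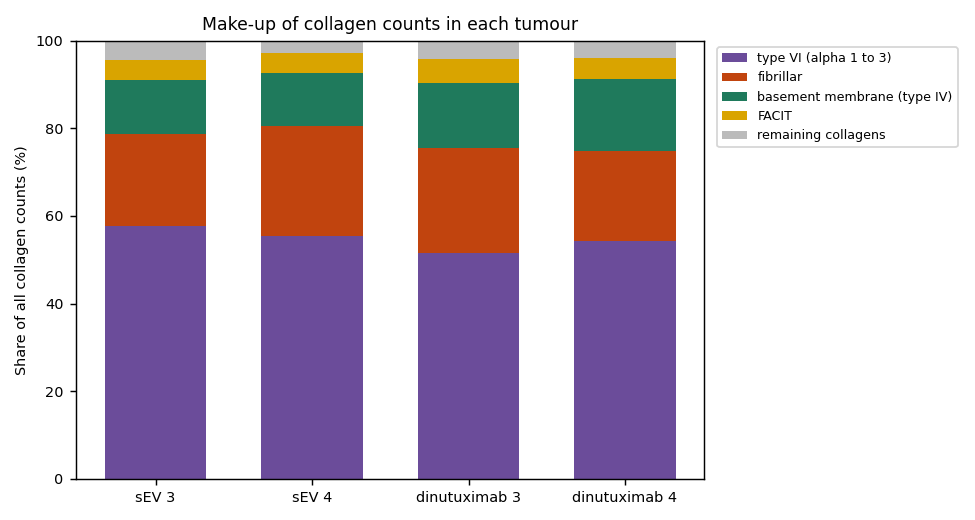
Share of all collagen counts (%) by class in each tumour, as stacked bars, with the type VI chains separated from the remaining collagens. Type VI takes between 51.6% and 57.8%, and type IV takes 12.3% and 12.2% in the sEV tumours, against 14.9% and 16.4% in the dinutuximab tumours.

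The fibrillar class together was 692 and 858 CPM with sEVs, against 668 and 732 CPM with dinutuximab, and the groups overlapped. Of its 11 genes 9 were tested, 3 with positive and 6 with negative log2 fold changes, and the class median was -0.17. That median was 0.08 without sEV tumour 3 and -0.48 without sEV tumour 4. Col3a1, which forms the homotrimer of the fine reticular fibres, was its most abundant member per kilobase, at a mean of 33.0. It was at 337 and 394 CPM in the sEV tumours, against 294 and 273 CPM in the dinutuximab tumours. Both sEV tumours were higher, and the 1.29-fold difference between the geometric means of the groups exceeded the 1.17-fold gap within the sEV group and the 1.08-fold gap within the dinutuximab group. The log2 fold change was 0.37 ± 0.14 (SE, n = 2 per group; edgeR adjusted p = 0.810). It lay between 0.25 and 0.47 when a tumour was left out, where its sign could hardly change because the groups did not overlap.

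Type I collagen, the main protein of tendon, bone and scar, was expressed at a low level. Col1a1, its alpha 1 chain, had 3.97 CPM per kilobase on average, and Col1a2, its alpha 2 chain, 0.671. Col1a1 was at 21.5 and 22.7 CPM in the sEV tumours, against 26.5 and 33.6 CPM in the dinutuximab tumours. Both sEV tumours were lower, with a log2 fold change of -0.44 ± 0.17 (SE; edgeR adjusted p = 0.834), and it was -0.26 without dinutuximab tumour 4. Col1a2 had 163 and 63 counts in the sEV tumours, against 257 and 365 counts in the dinutuximab tumours. These were 6.23 and 2.18 CPM with sEVs, against 10 and 14.9 CPM with dinutuximab, so the groups did not overlap, although the sEV tumours differed 2.86-fold from each other. The log2 fold change was -1.57 ± 0.43 (SE; edgeR adjusted p = 0.621). DESeq2 called it lower (adjusted p = 0.0289). The edgeR log2 fold change was -2.52 without sEV tumour 3 and -1.0 without sEV tumour 4. It was -1.83 without dinutuximab tumour 3 and -1.26 without dinutuximab tumour 4.

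Ratios of genes within a tumour do not depend on how libraries are scaled. Per kilobase, Col3a1 exceeded Col1a1 by 10.5 and 11.6 times in the sEV tumours, against 7.43 and 5.44 times in the dinutuximab tumours. As Col3a1 was higher and Col1a1 lower in both sEV tumours, their ratio had to separate the groups and is no further result. Col1a1 exceeded Col1a2 by 6.53 and 19.7 times in the sEV tumours, against 5.00 and 4.25 times in the dinutuximab tumours. With the longest annotated transcript as the length, this second ratio was 3.11 and 9.38 with sEVs, against 2.38 and 2.03 with dinutuximab. The size of the ratio depends on the annotated length, which scales it by the same factor in all 4 tumours.

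**Figure D3:**
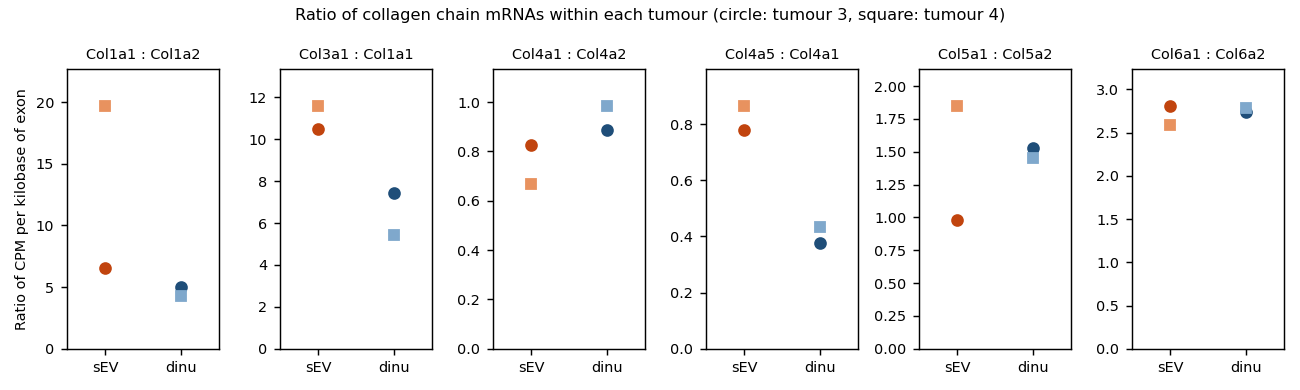
Ratio of the CPM per kilobase of exon of paired collagen genes within each tumour; each panel starts at 0, with the sEV tumours on the left. Col3a1 to Col1a1 and Col4a5 to Col4a1 are higher in both sEV tumours, and Col6a1 to Col6a2 lies between 2.59 and 2.81 in all 4. For Col3a1 to Col1a1 and Col4a5 to Col4a1 this follows from the choice of genes, as the first was higher and the second lower in both sEV tumours.

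Type V chains, which join type I and III fibrils and set their diameter, had overlapping groups. Col5a1 was at 94.2 and 199 CPM in the sEV tumours, against 123 and 144 CPM in the dinutuximab tumours. The sEV tumours enclosed the dinutuximab tumours and lay 2.11-fold apart. Its log2 fold change of 0.13 ± 0.29 (SE; edgeR adjusted p = 0.967) was 0.56 without sEV tumour 3 and -0.50 without sEV tumour 4. Col5a2 was at 109 and 121 CPM with sEVs, against 90.6 and 113 CPM with dinutuximab (0.18 ± 0.15, edgeR adjusted p = 0.913). Col5a3 was at 121 and 114 CPM with sEVs, against 117 and 149 CPM with dinutuximab (-0.17 ± 0.15, edgeR adjusted p = 0.918). Of the cartilage collagens in this class, Col2a1 had at most 1 count in a tumour, while Col11a1 (at most 5.61 CPM) and Col11a2 (at most 1.60 CPM) were measured at low levels. Col24a1 had at most 24 counts and Col27a1 at most 8.

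Basement membrane collagen of type IV was lower in both sEV tumours when summed, at 404 and 418 CPM, against 420 and 583 CPM in the dinutuximab tumours. The difference between sEV tumour 4 and dinutuximab tumour 3 was small, and without dinutuximab tumour 4 the log2 ratio of the sums was -0.03 in place of -0.29. As a share of collagen counts, type IV took 12.3% (95% exact binomial interval 12.1 to 12.5) and 12.2% (12.0 to 12.4) with sEVs, against 14.9% (14.7 to 15.2) and 16.4% (16.2 to 16.7) with dinutuximab.

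Of the 4 tested genes of the class, 1 had a positive and 3 a negative log2 fold change. Col4a1, a chain of the trimer found in nearly every basement membrane, was at 131 and 114 CPM in the sEV tumours, against 164 and 224 CPM in the dinutuximab tumours. The groups did not overlap, and the log2 fold change was -0.66 ± 0.17 (SE; edgeR adjusted p = 0.605). Without dinutuximab tumour 4 it was -0.42, and without sEV tumour 3 it was -0.77. Its partner chain Col4a2 was at 140 and 151 CPM, against 164 and 201 CPM with dinutuximab, a log2 fold change of -0.32 ± 0.15 (edgeR adjusted p = 0.885). Per kilobase, the ratio of Col4a1 to Col4a2 was 0.827 and 0.668 with sEVs, against 0.886 and 0.985 with dinutuximab. The exons of this pair overlap by 22 bases on opposite strands, so a small part of their counts could be misassigned.

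Col4a5 and Col4a6 encode chains of other type IV trimers and were singled out after their values were seen. Col4a5 was at 91.7 and 88.8 CPM in the sEV tumours, against 55.5 and 87.5 CPM in the dinutuximab tumours. The sEV tumours were higher, 1 of them narrowly, and the log2 fold change of 0.34 ± 0.20 did not pass (edgeR adjusted p = 0.908). Col4a6 was at 41.3 and 63.5 CPM, against 37.0 and 70.1 CPM with dinutuximab, with overlapping groups. Per kilobase, the ratio of Col4a5 to Col4a1 was 0.778 and 0.865 in the sEV tumours, against 0.377 and 0.435 in the dinutuximab tumours. This ratio had to separate the groups, as Col4a5 was higher and Col4a1 lower in both sEV tumours. Col4a3 and Col4a4, the chains of kidney glomeruli, had at most 2 and 4 counts.

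Multiplexins, which lie in the basement membrane zone of vessels and muscle, showed the lowest unadjusted p values among collagens. Col15a1 was at 8.71 and 6.52 CPM in the sEV tumours, against 15.5 and 18.7 CPM in the dinutuximab tumours. Both sEV tumours were lower, and the 2.26-fold difference between the geometric means of the groups exceeded the 1.34-fold gap within the sEV group and the 1.21-fold gap within the dinutuximab group. The log2 fold change was -1.17 ± 0.22 (SE; edgeR adjusted p = 0.404). DESeq2 called Col15a1 lower (adjusted p = 0.00408). The edgeR log2 fold change was -1.40 without sEV tumour 3 and -0.97 without sEV tumour 4. It was -1.3 without dinutuximab tumour 3 and -1.02 without dinutuximab tumour 4. Col18a1, whose carboxyl end is released as endostatin, was at 24.9 and 24.4 CPM, against 35.1 and 37.4 CPM with dinutuximab. The tumours of a group were nearly equal, and the log2 fold change was -0.56 ± 0.14 (SE; edgeR adjusted p = 0.568; DESeq2 adjusted p = 0.219).

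**Figure D4:**
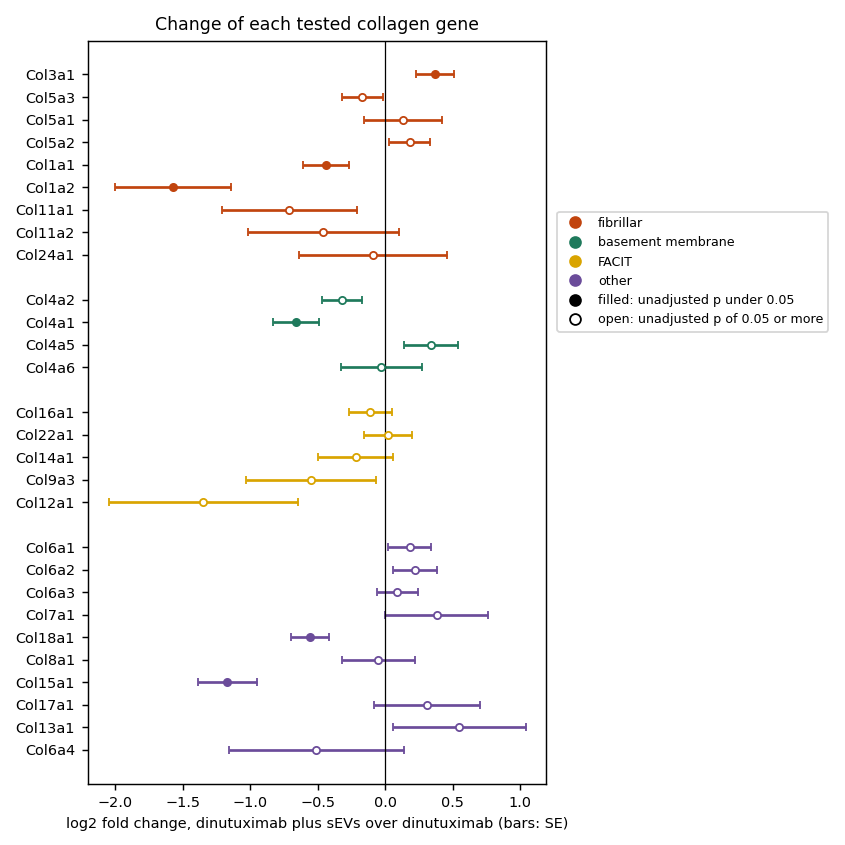
Log2 fold change, dinutuximab plus sEVs over dinutuximab, of each tested collagen gene with its SE, coloured by class; filled points have an unadjusted edgeR p under 0.05. Col3a1 is the filled point above 0, and Col1a1, Col1a2, Col4a1, Col18a1 and Col15a1 are the filled points below it.

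FACIT genes together were 149 and 153 CPM in the sEV tumours, against 153 and 168 CPM in the dinutuximab tumours, and the groups overlapped. Of 9 genes 5 were tested, with a median log2 fold change of -0.22 that stayed negative whichever tumour was left out. Col16a1, a fibril-associated collagen, was the most abundant per kilobase, at a mean of 15.2. It was at 87.0 and 110 CPM with sEVs, against 97.0 and 116 CPM with dinutuximab (log2 fold change -0.11 ± 0.16, edgeR adjusted p = 0.950). Col22a1, known from tissue junctions, was at 56.6 and 39.4 CPM, against 48.3 and 46.2 CPM with dinutuximab (0.02 ± 0.18, edgeR adjusted p = 0.994). Both genes had overlapping groups. Col14a1 was at most 4.60 CPM. Col12a1, singled out after its values were seen, had 30 and 4 counts with sEVs, against 43 and 38 counts with dinutuximab. Its edgeR log2 fold change was -1.35 over all 4 tumours, -3.51 without sEV tumour 3 and -0.49 without sEV tumour 4.

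Among the remaining collagens, Col7a1, the anchoring fibril collagen of epithelia, differed 2.26-fold between the sEV tumours and 1.88-fold between the dinutuximab tumours. It was at 81.3 and 35.9 CPM in the sEV tumours, against 31.3 and 58.9 CPM in the dinutuximab tumours. The groups overlapped (0.38 ± 0.38, edgeR adjusted p = 0.934). The log2 fold change was 0.85 without sEV tumour 4 and -0.33 without sEV tumour 3. Summed keratinocyte markers were at 3.25 and 3.08 CPM with sEVs, against 2.18 and 2.95 CPM with dinutuximab. Krt15, the largest part of each sum, was at 1.41 and 2.74 CPM with sEVs, against 1.68 and 2.7 CPM with dinutuximab. Krt15 and Dsp were thus lowest in sEV tumour 3. Krt5 and Krt14 were at 0.573 and 0.840 CPM in that tumour and at 0 counts in the other 3. Col13a1, a transmembrane collagen with the largest positive log2 fold change (0.55 ± 0.49, edgeR adjusted p = 0.918), was at 3.40 and 1.49 CPM with sEVs, against 1.09 and 2.25 CPM with dinutuximab. Its value was -0.17 without sEV tumour 3. Col8a1, a short-chain collagen of vessel walls, was at 22.8 and 27.8 CPM with sEVs, against 34.3 and 18.0 CPM with dinutuximab, with overlapping groups. Col17a1, the transmembrane collagen of hemidesmosomes, was at most 5.12 CPM.

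The 16 collagen genes not tested had at most 19 counts in any tumour, the value of Col25a1 in dinutuximab tumour 3. Col6a5, Col10a1 and Col19a1 had 0 counts in all 4, where a count of 0 allows up to 3 counts, or between 0.104 and 0.123 CPM. Col10a1 and Col2a1, which had at most 1 count, belong to cartilage. Of the 8 cartilage and bone markers 3 were tested, with 0 called, and their summed level was 134 and 134 CPM with sEVs, against 135 and 166 CPM with dinutuximab. Most of that sum was Sox9, a transcription factor of cartilage and other tissues, at 132 and 131 CPM with sEVs, against 134 and 164 CPM with dinutuximab, while Acan and Matn1 had 0 counts in all 4 tumours. Of the 28 tested genes, the difference between the groups' geometric means exceeded the gap within both groups for 7, where this was so for 22.1% of all genes tested, so the collagen share is near that of all genes. The 7 were Col3a1, Col4a2, Col4a1, Col18a1, Col1a1, Col15a1 and Col1a2.

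**Figure D5:**
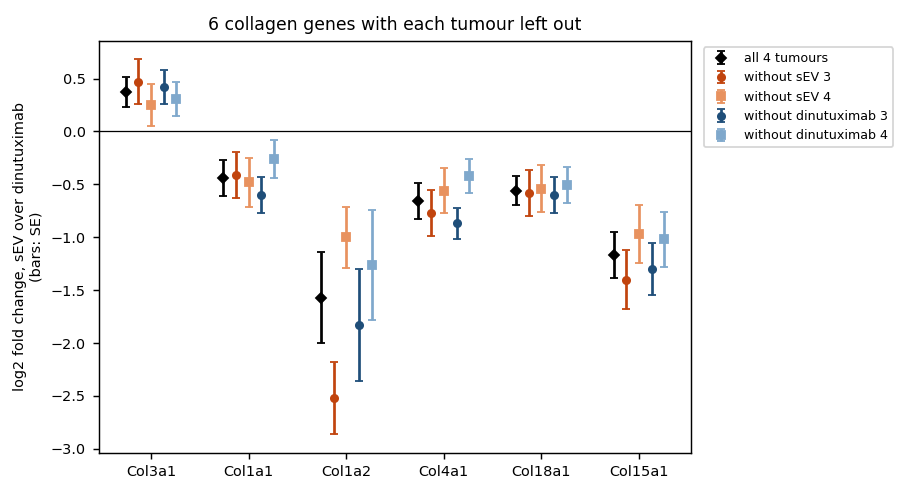
Log2 fold change with SE of the 6 collagen genes with an unadjusted edgeR p under 0.05, from all 4 tumours and with each tumour left out in turn. No value crosses 0, which follows largely from the choice of genes, as the groups did not overlap for any of the 6. Col1a2 ranges from -2.52 to -1.0.

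Genes that modify, export and crosslink collagen were split, 19 with positive and 19 with negative log2 fold changes. Of 44 such genes 38 were tested, and edgeR with Benjamini-Hochberg adjustment called 0 higher and 0 lower, where 0% of all genes were called. At an unadjusted p under 0.05, 3 were higher and 4 lower, where 2.47% and 3.1% of all genes were. Their median log2 fold change was 0.01. Among hydroxylases, P4ha1, a catalytic subunit of prolyl 4-hydroxylase, was at 205 and 265 CPM with sEVs, against 312 and 295 CPM with dinutuximab (log2 fold change -0.37 ± 0.15, edgeR adjusted p = 0.861). P4ha2, another such subunit, was at 70.6 and 75.0 CPM with sEVs, against 126 and 88.5 CPM with dinutuximab (-0.56 ± 0.18, edgeR adjusted p = 0.720). The subunit P4ha3 was at 16.2 and 10.4 CPM with sEVs, against 9.12 and 8.07 CPM with dinutuximab (0.63 ± 0.24, edgeR adjusted p = 0.841). None of these 3 genes had overlapping groups. P4hb, their shared partner, was at 1970 and 1940 CPM with sEVs, against 2110 and 1810 CPM with dinutuximab (-0.01 ± 0.13). Lox, a lysyl oxidase that starts crosslinking, was at 0.267 and 0.208 CPM in the sEV tumours, against 1.68 and 1.27 CPM in the dinutuximab tumours. Its groups were far apart at a very low level (-2.61 ± 0.47, edgeR adjusted p = 0.389). Loxl2, a related oxidase, was at 1.18 and 0.555 CPM with sEVs, against 2.03 and 2.42 CPM with dinutuximab (-1.36 ± 0.43, edgeR adjusted p = 0.726). Loxl3, of the same family, was at 44.2 and 27.7 CPM with sEVs, against 29 and 27.6 CPM with dinutuximab (0.34 ± 0.22, edgeR adjusted p = 0.908). Pcolce, which enhances removal of the carboxyl propeptide, was at 540 and 390 CPM with sEVs, against 327 and 326 CPM with dinutuximab (0.51 ± 0.17, edgeR adjusted p = 0.738). Serpinh1, the collagen chaperone HSP47, was at 1310 and 1720 CPM with sEVs, against 1870 and 1490 CPM with dinutuximab (-0.15 ± 0.17). Colgalt1, a collagen galactosyltransferase, was at 258 and 253 CPM with sEVs, against 212 and 242 CPM with dinutuximab (0.17 ± 0.13). Among receptors, Itga10, a collagen-binding integrin chain, was at 51.0 and 38.7 CPM with sEVs, against 18.8 and 26.5 CPM with dinutuximab (0.99 ± 0.21, edgeR adjusted p = 0.463). Its beta partner Itgb1 was at 718 and 622 CPM with sEVs, against 617 and 595 CPM with dinutuximab (0.14 ± 0.13).

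In the marker lists of other cell types edgeR called 0 markers, and the summed levels of the lists were not tested. All 8 tested pericyte and smooth muscle markers had negative log2 fold changes (median -1.03), with 0 called by edgeR, and their summed level was 60.5 and 51.7 CPM with sEVs, against 104 and 101 CPM with dinutuximab; Cnn1 was at 0 in all 4. All 9 endothelial markers were negative (median -0.48, 0 called), at 114 and 107 CPM summed, against 136 and 152 CPM with dinutuximab. Fibroblast markers were mixed, 4 of 10 positive and 6 negative (median -0.46, 0 called), with Dcn, a fibroblast proteoglycan gene, at 482 and 289 CPM with sEVs, against 268 and 261 CPM with dinutuximab. Their summed level was 556 and 354 CPM with sEVs, against 329 and 341 CPM with dinutuximab. All 5 tested skeletal muscle markers were negative (median -0.75, 0 called), at 8.25 and 4.96 CPM summed with sEVs, against 12.0 and 12.8 CPM with dinutuximab. Of 7 macrophage markers 6 were positive and 1 negative (median 0.16, 0 called), at 2460 and 2390 CPM summed with sEVs, against 1840 and 2140 CPM with dinutuximab. Unadjusted edgeR p was under 0.05 for 5 of 8 pericyte and smooth muscle and 1 of 9 endothelial markers, all lower. Of 10 fibroblast markers, 4 were lower and 2 higher at this threshold. Of skeletal muscle markers 2 of 5 were lower, and of macrophage markers 3 of 7 higher. Among all genes tested, 2.47% were higher and 3.1% lower. Both sEV tumours lay below both dinutuximab tumours for 8 tested collagen genes, among them Col15a1, Col18a1, Col4a1 and Col1a2. The same held for the summed pericyte, endothelial and skeletal muscle markers, and for 16.5% of all genes tested. With 2 tumours in each group, such a match follows from the group split and holds no further information. The summed macrophage, fibroblast and neuroblastoma markers were higher in both sEV tumours. Most of the fibroblast sum was Dcn in every tumour, while 6 of the 10 tested fibroblast markers were negative. The neuroblastoma sum was 296 and 287 CPM with sEVs, against 244 and 255 CPM with dinutuximab, with 3 of 4 tested genes positive and 1 negative. The part of those cells in the result was not tested. In these bulk samples, fewer cells of a type and less RNA per cell cannot be told apart. Genes to which reads of ribosomal RNA map held 4.77% and 4.07% of counts with sEVs, against 5.72% and 5.97% with dinutuximab. Of 14 immediate early and heat shock genes 13 were negative (median -0.37, 0 called), 4 of them with an unadjusted edgeR p under 0.05. The part of RNA handling in the collagen values was not tested.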

How the data were processed

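The deposited values are raw counts, 1 per Ensembl gene and library, for 4 tumours. Per the submitters' processing notes, STAR, SAMtools, HTSeq and the mm10 build were used; versions, annotation release and strand setting are not given in the sources used here, so counts of overlapping genes are uncertain. The matrix of the series and the tables per sample were equal in all 173728 values. GENCODE M21 (GRCm38) named 42548 genes and left 884 without a name, which stayed in the tests. Exon lengths are the union of annotated exons.

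The tests used edgeR 4.0.16 in R 4.3.3: filterByExpr at its defaults (13823 genes kept), TMM scaling, the quasi-likelihood F test with group as the only term, and Benjamini-Hochberg adjustment over all genes tested at 0.05. Log2 fold changes are dinutuximab plus sEVs over dinutuximab. For 2 samples a group an exact permutation test (two-sided) cannot go below 0.333, so sums and ratios were not tested. Libraries of the same group differed by a chi-square per degree of freedom of 23.9 and 26.4, far above sampling noise. Pairs from different groups lay between 22.6 and 35.8, and the lowest value of all was that of dinutuximab tumour 4 with sEV tumour 4. The test was tested on simulated data. DESeq2 1.42.0 and limma-voom (limma 3.58.1) were alternatives, with other scalings, filters, robust dispersions, a replicate block and each tumour left out.

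The collagen members, classes and lists were chosen with earlier results of these data known. Named with values in every tumour were the 2 members of each class with the highest CPM per kilobase, the chains of types I, III, IV (alpha 1 and 2), V and VI, members with unadjusted p under 0.05 and those of largest change in each direction, and processing genes with unadjusted p under 0.05 or most abundant in their list; further members were named after their values were seen.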

Additional observations from a re-analysis of the deposited data

How the results depend on the processing

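Under DESeq2, 14 of the 12191 genes with an adjusted p were higher and 31 lower. Among these were 2 of 24 collagen genes, lower, and 1 gene of collagen processing, higher. Without a filter on low counts edgeR called 107 of 22003 genes higher and 155 lower. Among these were 3 of 41 collagen genes lower (Col15a1, Col1a2 and Col4a1), 2 processing genes higher and 3 lower. The cause was not tested. With the tumour number as a replicate block edgeR called 21 of 13823 genes higher and 46 lower. Among these were 1 of 28 collagen genes, lower (Col15a1, edgeR adjusted p = 0.0384), and 1 processing gene in each direction. The labels do not say that a number marks a shared source, and same-numbered deviations correlated at 0.0659. Leaving out 1 tumour gave between 0 and 160 genes higher and between 0 and 156 lower, between 0 and 1 collagen genes higher and between 0 and 4 lower, and between 0 and 3 processing genes higher and between 0 and 2 lower. Such a fit takes the spread of the complete group for the lone tumour as well. The calls came without sEV tumour 3 or 4, and none without either dinutuximab tumour. The median log2 fold change then lay between -0.37 and -0.01 over collagens, -0.48 and 0.08 over fibrillar, -0.44 and 0.17 over basement membrane and -0.17 and 0.22 over other genes. The log2 ratio of summed levels lay between -0.08 and 0.26 for all collagens, -0.51 and -0.03 for basement membrane and -0.03 and 0.36 for other genes. Among the 28 tested collagens, those that crossed 0 when a tumour was left out were Col11a1 (-1.29 to 0.26), Col11a2 (-1.38 to 0.10), Col17a1 (-0.35 to 0.76), Col24a1 (-0.60 to 0.73), Col4a6 (-0.42 to 0.50), Col6a4 (-1.66 to 0.09), Col7a1 (-0.33 to 0.90), Col8a1 (-0.44 to 0.49), Col13a1 (-0.17 to 1.16), Col16a1 (-0.29 to 0.04), Col22a1 (-0.27 to 0.26), Col5a1 (-0.50 to 0.56), Col5a3 (-0.34 to 0.01), Col6a1 (-0.03 to 0.43) and Col6a3 (-0.04 to 0.22). Also across 0 from their main values, or at it, were Col22a1 (0.00), Col24a1 (0.02), Col4a6 (0.01) and Col8a1 (0.02) under limma-voom, Col22a1 (0.00), Col4a6 (0.00) and Col8a1 (0.01) under the block, and Col4a6 (0.00) when scaled by library totals. Ratios of chains within a tumour do not depend on scaling or filter. With the longest transcript as the length, 9 of the 10 highest collagens per kilobase were among the highest 10. Counts limit what can be said of members under about 1 CPM.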
